A study of Mus musculus with 3 samples.

Results

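The insulin-like growth factor (IGF) axis was followed in fetal liver through 9 genes chosen by symbol: the ligands Igf1 and Igf2, the receptors Igf1r and Igf2r, and the binding proteins Igfbp1, Igfbp2, Igfbp3, Igfbp4 and Igfbp5. Of these, 8 genes had at least 1 probe with a single gene symbol in the array annotation, 10 probes in all out of 20289 on the array. Igfbp2 had none, and no reading is given for it. The messenger RNA came from fetal liver at stage E14.5 and was hybridised to 3 single-colour CodeLink arrays, 1 array for each of 3 genotypes. These were wild-type embryos, embryos that lack DNase II, and embryos that lack DNase II together with IFN-IR, the type I interferon receptor. DNase II is the lysosomal enzyme with which macrophages degrade the DNA of engulfed nuclei. The sources used here do not give the strain, or how many embryos each array stands for.

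IGF1 and IGF2 are secreted growth factors that signal through the tyrosine kinase receptor encoded by Igf1r, and IGF2 is the main growth factor of the pair before birth. The receptor encoded by Igf2r carries no kinase and takes IGF2 into the cell for breakdown in lysosomes. The IGF binding proteins hold the ligands in solution or at the matrix and set how much of them reaches the receptor. Among them IGFBP1 is made mainly by hepatocytes, and its gene is known to be repressed by insulin and raised by fasting, low oxygen and cell stress.

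With 1 array per genotype no difference below has a replicate check, and none carries a test. The set was assembled with the difference of Igfbp1 between these arrays already known, so its values are given as a description. Values are the deposited normalised intensities, on a linear scale. Differences are on the log2 scale, after values under an array's 25th percentile (its floor, 0.159 to 0.163) were raised to it. Genes were compared if at least 1 of the 2 readings exceeded its array's median (0.958 to 0.964), and were counted if the readings differed by at least 2-fold. All 8 measured genes passed this filter in each of the 3 comparisons. Intensities of different probes are not compared, since probes differ in how strongly they bind. Where readings are summed over several genes, the brightest probes weigh most.

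The genotypes rest on the labels. The Dnase2a probe gave 40.4 for wild-type, 48.6 for the DNase II-deficient array and 39.7 for the double-deficient one, and the Ifnar1 and Ifnar2 probes were likewise read in every array. The sources used here do not say whether these probes lie within the deleted stretches. The labelled tissue showed its defining hepatocyte markers: Afp, Ttr, Apoa1, Trf, Fgb, Ahsg and Serpina1a, 7 of 10 listed markers, had a probe and all lay above the floor on every array, with summed intensities of 2848, 3022 and 2652 in the same order of arrays.

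The regions just before the transcription starts of Igfbp1, Igfbp3 and Igfbp5 are shown first, because these were the members at least 2-fold higher in the DNase II-deficient array than in wild-type. That of G6pc, the glucose-6-phosphatase gene of hepatocytes, is shown beside them because it holds the same insulin-related motif and read the other way. Each is the 250 bases before the start, 5′ to 3′ on the gene's strand, from RefSeq with build GRCm38.p6. The windows are chr11:7197537-7197786 on the plus strand for Igfbp1, chr11:7213924-7214173 on the minus strand for Igfbp3, chr1:72874866-72875115 on the minus strand for Igfbp5 and chr11:101367466-101367715 on the plus strand for G6pc. Capitals mark matches to CAAAANA, the core of the insulin response element, on either strand.
Igfbp1: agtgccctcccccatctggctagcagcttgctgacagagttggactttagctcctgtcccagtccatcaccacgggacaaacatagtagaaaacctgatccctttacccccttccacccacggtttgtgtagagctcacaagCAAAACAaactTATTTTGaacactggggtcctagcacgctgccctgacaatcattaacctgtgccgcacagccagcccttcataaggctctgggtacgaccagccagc
Igfbp3: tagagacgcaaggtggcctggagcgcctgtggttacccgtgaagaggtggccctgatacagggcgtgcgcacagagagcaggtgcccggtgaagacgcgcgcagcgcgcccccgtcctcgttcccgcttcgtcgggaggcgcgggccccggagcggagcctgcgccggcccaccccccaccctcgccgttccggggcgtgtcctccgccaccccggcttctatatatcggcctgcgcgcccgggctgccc
Igfbp5: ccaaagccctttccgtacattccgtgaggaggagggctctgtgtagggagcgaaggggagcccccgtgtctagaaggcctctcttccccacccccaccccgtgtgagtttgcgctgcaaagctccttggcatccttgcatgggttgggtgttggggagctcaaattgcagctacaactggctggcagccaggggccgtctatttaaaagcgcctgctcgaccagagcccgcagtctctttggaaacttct
G6pc: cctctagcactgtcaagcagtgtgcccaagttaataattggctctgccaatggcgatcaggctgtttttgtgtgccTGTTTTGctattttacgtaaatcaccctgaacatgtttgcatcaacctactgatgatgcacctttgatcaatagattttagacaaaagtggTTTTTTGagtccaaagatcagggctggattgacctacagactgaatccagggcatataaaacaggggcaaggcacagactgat

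The Igfbp1 window held 2 matches to CAAAANA, 1 on each strand, 108 to 102 and 97 to 91 bases before the start, which form an inverted repeat. The G6pc window also held 2, at 174 to 168 and 83 to 77 bases before the start. Igfbp1 was the only member with a match: 1 of the 13 windows of the 9 genes held one, against 16.9% of all 32851 promoter windows of this length. The hypoxia response element core was searched in both its forms. ACGTG was in 3 of the 13 member windows, belonging to Igf2, Igf2r and Igfbp2 (16.6% of all windows), and GCGTG was in 6 (28.2%), among them those of Igfbp1 and Igfbp3 with 1 and 2 matches. The core of the interferon-stimulated response element, GAAA followed by any 2 bases and GAAA again, was in 0 of the 13 windows (2.98% of all), and the STAT site TTCNNNGAA was in 0 as well (7.02%). The GC content of the windows was 53.2% for Igfbp1, 73.2% for Igfbp3 and 58.8% for Igfbp5, with a median of 52.4% over all windows. A match is a run of letters and not a measured binding site. The motifs, and G6pc as a gene to show, were chosen with the values of these genes known. The opposite reading of G6pc was part of that choice, so nothing is drawn from it about the motif.

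Igfbp1 and Igfbp3 are next to each other on chromosome 11, and Igfbp2 and Igfbp5 next to each other on chromosome 1, with no other protein-coding gene between them in the RefSeq gene table. Igf2 lies beside the insulin gene Ins2 on chromosome 7.

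Of the ligands, Igf2 differed little between arrays and Igf1 was lowest in the DNase II-deficient array. Igf2 read 176.5 in wild-type, 147.4 in the DNase II-deficient array and 134.8 in the double-deficient array. The log2 difference of the DNase II-deficient array from wild-type, -0.26, lay beside the median of all 8383 genes compared, -0.21, and it changed sign under quantile scaling (0.02) and loess scaling (0.08). The double-deficient array lay below wild-type by -0.39 on the log2 scale, which was 1.31-fold lower, where the median of all genes was -0.08. Igf1, whose product mediates much of growth hormone action after birth and is also made by macrophages and mesenchymal cells, read 4.37, 2.67 and 6.21. It was 1.64-fold lower in the DNase II-deficient array than in wild-type and 1.42-fold higher in the double-deficient array than in wild-type. Between the mutant arrays it was 2.32-fold higher in the double-deficient one, a log2 difference of 1.22.

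The receptors differed by less than 2-fold in every pair of arrays. Igf2r read 14.8 in wild-type, 13.4 in the DNase II-deficient array and 15.6 in the double-deficient array. Its log2 difference of -0.15 between the DNase II-deficient array and wild-type became 0.05, 0.13 and 0.06 after quantile scaling, loess scaling and centring. Igf1r had 2 probes that ordered the arrays differently. The brighter read 8.20, 6.75 and 11.2, lowest in the DNase II-deficient array, and the dimmer read 1.49, 1.90 and 1.40, highest there. Their log2 differences between the DNase II-deficient array and wild-type were -0.28 and 0.36, so no direction is given for the gene.

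**Figure D1:**
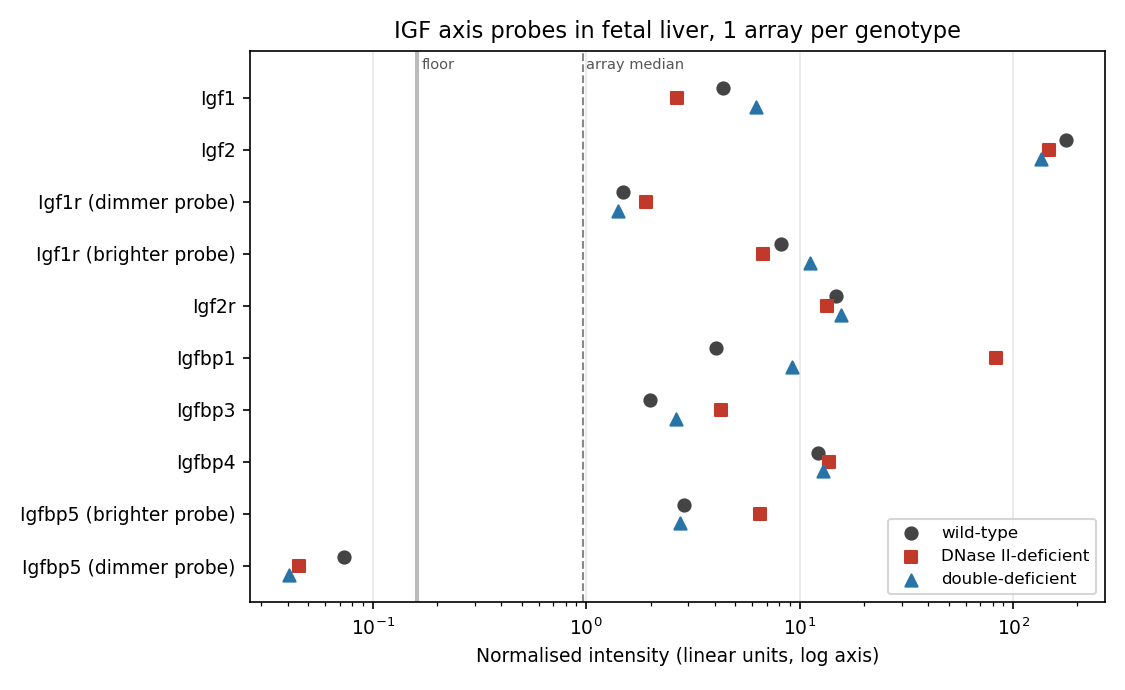
Deposited normalised intensity (linear units on a log axis) of the 10 probes of the 8 measured IGF axis genes, with 1 point per array: circles for wild-type, squares for DNase II-deficient and triangles for double-deficient. The grey band is the floor and the dashed line the array median. Igfbp1 stands out at 82.8 in the DNase II-deficient array against 4.06 and 9.19, while the Igf2, Igf2r and Igfbp4 points lie close together.

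Among the binding proteins, Igfbp1, Igfbp3 and Igfbp5 differed by at least 2-fold between arrays and Igfbp4 did not. Igfbp1 read 4.06 in wild-type, 82.8 in the DNase II-deficient array and 9.19 in the double-deficient array. The DNase II-deficient reading was 20.4-fold above wild-type, rank 35 from the highest of 8383 genes compared, and 9.01-fold above the double-deficient one. The double-deficient reading itself was 2.26-fold above wild-type, a log2 difference of 1.18 and rank 126 of 8158 genes. On the log2 scale, the 500 genes nearest in level spread by 0.45 in the first of these comparisons, by 0.35 between the mutant arrays and by 0.29 in the last, which describes the arrays and not replicates. Igfbp1 rests on 1 probe.

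Igfbp3 encodes the main carrier of IGFs in adult blood, in a complex with the acid-labile subunit. It read 1.99 in wild-type, 4.28 in the DNase II-deficient array and 2.63 in the double-deficient array. The DNase II-deficient array was 2.15-fold above wild-type and 1.63-fold above the double-deficient one, which was 1.32-fold above wild-type. Igfbp5 encodes a binding protein found at the extracellular matrix of mesenchymal tissues. Its brighter probe read 2.86, 6.49 and 2.74, so the DNase II-deficient array was 2.27-fold above wild-type and 2.36-fold above the double-deficient array. The double-deficient and wild-type readings differed by -0.06 on the log2 scale. The other Igfbp5 probe read 0.0734, 0.0452 and 0.0406, below the floor on every array, and gives no order. With the median of both probes the log2 difference of Igfbp5 from wild-type was 0.58, under 2-fold. Igfbp4 encodes a binding protein that is cleaved by the protease PAPP-A. It read 12.2, 13.8 and 12.8, within 1.13-fold in every pair of arrays.

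Set against all genes, 3 of the 8 measured members (Igfbp1, Igfbp3 and Igfbp5) were at least 2-fold higher in the DNase II-deficient array than in wild-type, where 7.67% of the 8383 genes compared were, and 0 were 2-fold lower, where 6.17% were. In the double-deficient array against the DNase II-deficient one, 1 member (Igf1) was at least 2-fold higher against 3.11% of 8303 genes, and 2 (Igfbp1 and Igfbp5) were at least 2-fold lower against 4.85%. In the double-deficient array against wild-type, 1 member (Igfbp1) was at least 2-fold higher against 2.05% of 8158 genes, and 0 were 2-fold lower against 0.735%. These shares are printed as background and nothing is drawn from them, since the members were chosen with these contrasts known. The comparisons share arrays, so their counts are not independent. The median log2 difference of the 8 genes was 0.02, -0.12 and 0.24 in these comparisons, and -0.21, 0.11 and -0.08 over all genes.

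The scale of the arrays bears on small differences. After centring on the median of all genes compared, the log2 differences of Igfbp1, Igfbp3 and Igfbp5 between the DNase II-deficient array and wild-type were 4.55, 1.31 and 1.39, and that of Igf1 was -0.50. Higher genes made up 55.4% of the 2-fold calls in that comparison as deposited, 65.8% after quantile scaling, 67.1% after scaling to the 75th percentile, 74.1% after loess and 73.6% after centring. Between the mutant arrays the share was 39.0% as deposited, 24.3% after loess and 26.8% after centring.

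**Figure D2:**
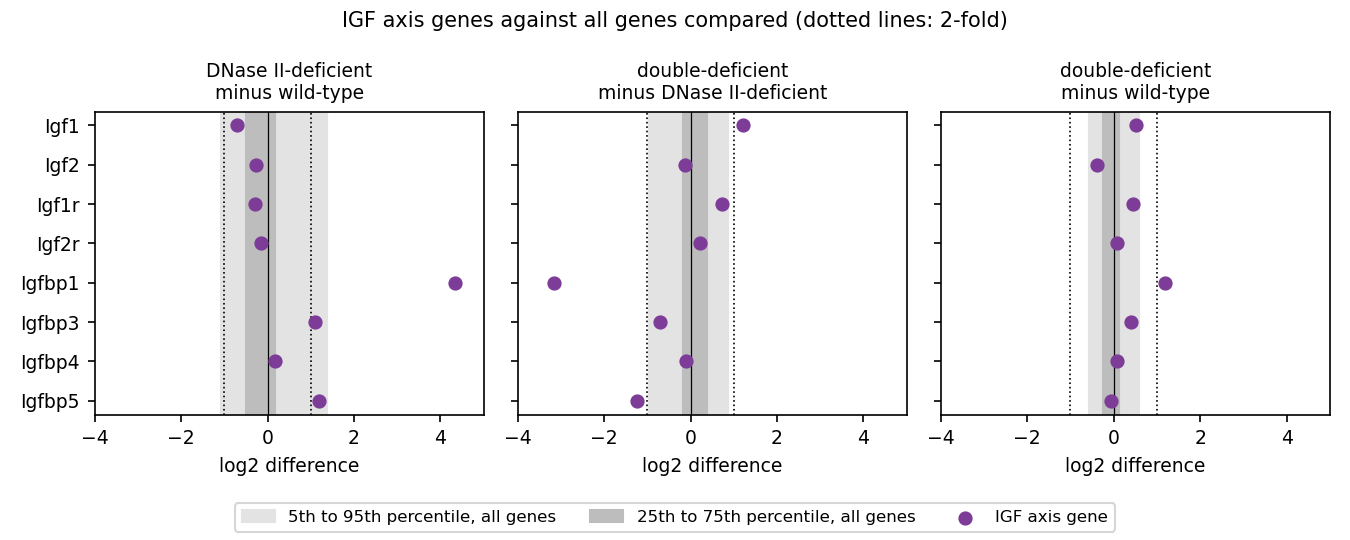
Log2 difference of each measured IGF axis gene (purple points, brightest probe) in the 3 comparisons, 1 panel each. The grey bands span the 5th to 95th and the 25th to 75th percentile of all genes compared, and dotted lines mark 2-fold. Igfbp1 lies at 4.35, -3.17 and 1.18, outside the wider band in every panel, and in the middle panel Igf1 at 1.22 and Igfbp5 at -1.24 lie outside it too.

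Further genes of the pathway were taken from 4 lists, of other IGF and insulin ligands, receptors and carriers, of signalling below the receptors, of the growth hormone and prolactin arm, and of Igf2 RNA binding and imprinted growth genes. Of 57 genes listed, 48 had a probe and 33 passed the level filter between the DNase II-deficient array and wild-type. There 3 were at least 2-fold higher and 0 lower, with a median log2 difference of -0.08. Over all genes compared 7.67% were higher and 6.17% lower, so that the count of higher genes lies near the background. Between the mutant arrays 0 of 32 were 2-fold higher and 3 lower, against 3.11% and 4.85% of all genes. Between the double-deficient array and wild-type 0 of 30 differed by 2-fold, where 2.05% of all genes were higher and 0.735% lower. Nothing is drawn from these counts. The 3 genes were Stc1, Stc2 and Tsc1, and their values follow as a description.

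Stc1 and Stc2 encode stanniocalcins, secreted inhibitors of the PAPP-A protease that cleaves IGFBP4. Stc2 read 0.282 in wild-type, 3.93 in the DNase II-deficient array and 0.411 in the double-deficient array, 13.9-fold above wild-type and 9.57-fold above the double-deficient reading. Stc1 read 0.144, 1.80 and 0.125, below the floor in the wild-type and double-deficient arrays, so the DNase II-deficient reading was at least 11.1-fold and at least 11.0-fold higher than theirs. Both stood high in the DNase II-deficient array alone. With the floor raised to the array median their log2 differences from wild-type were 2.04 and 0.91, the latter under 2-fold, and neither passed a filter at the 75th percentile. The Pappa probe, for the protease itself, read no higher than 0.327 on any array and did not pass the filter.

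The remaining carriers and receptors were closer between arrays. Igfbp7, a related secreted protein with weak IGF binding, read 115.9, 84.9 and 119.4. Igfals, the acid-labile subunit that binds IGFBP3, read 1.95, 1.43 and 1.02, and was 1.92-fold lower in the double-deficient array than in wild-type. Insr, the insulin receptor, read 0.975, 0.882 and 0.745. Igfbp6 and Ins2 were below the floor on every array.

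Below the receptors, Tsc1, which with Tsc2 restrains the growth kinase mTOR, read 0.604, 1.50 and 0.558. It was 2.49-fold above wild-type and 2.69-fold above the double-deficient array, and under 2-fold (log2 differences 0.65 and -0.64) once the floor was raised to the median. Grb10, an adaptor that dampens signalling from the insulin and IGF1 receptors, read 189.0, 207.7 and 196.9 on its brightest probe. The median over its probes gave a log2 difference of 1.15 between the DNase II-deficient array and wild-type, so its probes did not agree. Akt2 read 39.7, 32.7 and 35.5 and Rheb 53.8, 51.8 and 49.7. Foxo1, the transcription factor that binds the insulin response element and is switched off by insulin signalling, read 2.21, 3.38 and 2.06, 1.53-fold above wild-type in the DNase II-deficient array. Foxo1 was singled out after its values were seen. In the growth hormone arm Ghr, the growth hormone receptor, read 7.32, 7.33 and 6.19, Stat5a 2.13, 1.92 and 1.99, and Socs2 1.92, 1.83 and 2.17. None of the 4 members that passed the filter differed by 2-fold. Stat5b did not pass it, being below the median on every array, and read 0.257, 0.766 and 0.356. That was 2.98-fold higher in the DNase II-deficient array than in wild-type and 2.15-fold higher than in the double-deficient array. Among imprinted growth genes Dlk1 read 91.5, 91.3 and 72.7 and Mest 16.6, 21.5 and 19.8. Cdkn1c, a cell cycle inhibitor, read 43.8, 27.6 and 27.4, 1.59-fold and 1.60-fold lower in the mutant arrays than in wild-type.

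Genes that share known regulators with Igfbp1 went in different directions. G6pc, which like Igfbp1 is repressed by insulin in liver, read 135.2 in wild-type, 56.0 in the DNase II-deficient array and 118.1 in the double-deficient array. It was lowest where Igfbp1 was highest, 2.41-fold below wild-type, although the log2 difference fell just under 2-fold after quantile and loess scaling and reached -0.94 at the smallest. The list headed fasting and FoxO targets held 7 genes, and repression by insulin is stated here for G6pc only. Of the 7, 6 had a probe and 2 passed the filter in this comparison, G6pc and Asns, the latter at 100.3, 69.5 and 74.1. Pck1, a gluconeogenic enzyme, and Tat, which degrades tyrosine, did not pass it, and Pdk4 was below the floor on every array. Most hypoxia targets were highest in the array where Igfbp1 was highest. Of 13 listed, 11 had a probe and passed the filter, 10 of them highest in the DNase II-deficient array and Slc2a1 in wild-type, and 5 were at least 2-fold higher in the DNase II-deficient array than in wild-type, with 0 lower and a median log2 difference of 0.94, against 7.67% of all genes higher and 6.17% lower. The count was 4 to 7 over the alternatives. Adm was 16.7-fold, Ddit4 5.33-fold, Bnip3 4.80-fold, Vegfa 4.46-fold and P4ha1 2.09-fold higher. Ldha and Hmox1, among the brightest on the list, were 1.55-fold and 1.79-fold higher. The wild-type reading of Adm, 0.438, was below the array median, and its log2 difference of 4.07 became 2.94 with the floor raised there. That of Ddit4, 0.701, was also below the median, and its log2 difference of 2.41 became 1.96 in the same way. Ddit4 did not pass a filter at the 75th percentile. In the double-deficient array 0 of the 10 that passed differed from wild-type by 2-fold, where 2.05% of all genes were higher and 0.735% lower. Ddit4 was the farthest above wild-type, at 1.62-fold, and Igfbp1 was 2.26-fold above it. That contrast between Igfbp1 and the hypoxia list has no test. The part of insulin, Foxo1 or low oxygen in the Igfbp1 reading was not tested.

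Markers of other cell types also differed where the binding proteins did. Over all 8383 genes compared between the DNase II-deficient array and wild-type, 7.67% were at least 2-fold higher and 6.17% lower. Of 12 stellate and mesenchymal markers, all with a probe, 10 passed the filter between the DNase II-deficient array and wild-type and 5 were at least 2-fold higher, with 0 lower: Lrat, Pdgfrb, Acta2, Dcn and Pdgfra, at 4.58-fold, 3.42-fold, 2.54-fold, 2.14-fold and 2.07-fold. The wild-type reading of Lrat, 0.360, was below the array median, and its log2 difference fell to 0.78 with the floor raised there. That of Pdgfra fell to 0.51 with the median of its probes, and the count was 3 to 6 over the alternatives. The summed intensity of the 12 was 150.2 in the wild-type array, 222.0 in the DNase II-deficient array and 166.8 in the double-deficient array, and Hand2 was below the floor on each. Col3a1 was the brightest of them, at 76.0, 117.9 and 84.5. Reln, also among the 3 brightest, went the other way, at 32.1, 21.7 and 28.9. Its log2 difference between the DNase II-deficient array and wild-type was -0.56. Col1a1 was highest in the double-deficient array, at 3.18, 3.98 and 5.02. Endothelial markers split, with Pecam1, Emcn and Esam 2.60-fold, 2.34-fold and 2.34-fold higher and Stab2 2.26-fold lower, out of 7 that passed. Kdr, Tie1 and Tek, the others that passed, differed by less than 2-fold. The wild-type readings of Pecam1 and Emcn, 0.775 and 0.827, were below the array median. Of the higher genes, only Esam was still called with the filter at the 75th percentile. The call of Emcn was lost with the median of its probes (log2 difference 0.60) and that of Stab2 under quantile and loess scaling and centring. The summed intensity of the 8 endothelial markers with a probe was 48.1, 45.1 and 44.9. Of the 7 hepatocyte markers with a probe, 0 were at least 2-fold higher. Serpina1a was 2.26-fold lower, a call lost under quantile and loess scaling and centring. Afp and Trf were 1.52-fold and 1.49-fold higher and Apoa1 was 1.32-fold lower. In bulk tissue, fewer or more cells of a type and less or more RNA per cell cannot be told apart. The part of cell composition in the readings of Igfbp1, Igfbp3 and Igfbp5 was not tested.

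Some macrophage markers were lower in the DNase II-deficient array, where Igf1 was lowest at 1.64-fold below wild-type. Of 10 listed, 7 had a probe and 5 passed the filter between that array and wild-type, and 3 were at least 2-fold lower: Marco, Cd5l and Clec4f, at 10.3-fold, 8.97-fold and 7.16-fold. Over all genes in this comparison, 6.17% were at least 2-fold lower and 7.67% higher. The Clec4f reading in the DNase II-deficient array, 0.177, lay just above the floor. Its log2 difference was -0.40 with the floor at the array median, which left 2 genes 2-fold lower. C1qa and Mrc1 differed from wild-type by less than 2-fold, and Adgre1 and Cd163 did not pass the filter. The summed intensity of the 7 was 86.0 in the wild-type array, 16.8 in the DNase II-deficient array and 35.4 in the double-deficient array. In wild-type most of it came from Marco and Cd5l, at 41.1 and 30.6, which read 3.98 and 3.41 in the DNase II-deficient array. In the double-deficient array, where Igf1 was 1.42-fold above wild-type, the markers split: Cd5l was 7.47-fold and Marco 3.06-fold lower, and C1qa was 1.20-fold and Mrc1 1.82-fold higher. C1qa read 8.06, 5.73 and 9.64 and Mrc1 3.98, 2.78 and 7.24, both in the same order of arrays as Igf1. They were picked after the values were seen, and the other markers with a probe did not share that order. Marco, Cd5l, Clec4f and Cd163 were highest in wild-type, and Adgre1 in the DNase II-deficient array. Clec4f was below the floor in the double-deficient array. Of the 8 erythroid markers with a probe, 5 were at least 2-fold lower than wild-type in the DNase II-deficient array, against 6.17% of all genes. These were Epb42, Klf1, Slc4a1, Epor and Gata1. The sums of the 8 were 1794, 1452 and 1649, with Hbb-bt at 1032, 895 and 993 and Hba-a1 at 632, 482 and 547. Tfrc, on the same list, was 1.80-fold higher. After loess scaling 2 were lower and 1 higher, and after quantile scaling or centring 4 were lower and 1 higher. Of the 5 megakaryocyte markers 0 differed from wild-type by 2-fold there, with sums of 230.1, 166.0 and 162.2. The part of these cells in the Igf1 reading was not tested.

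**Figure D3:**
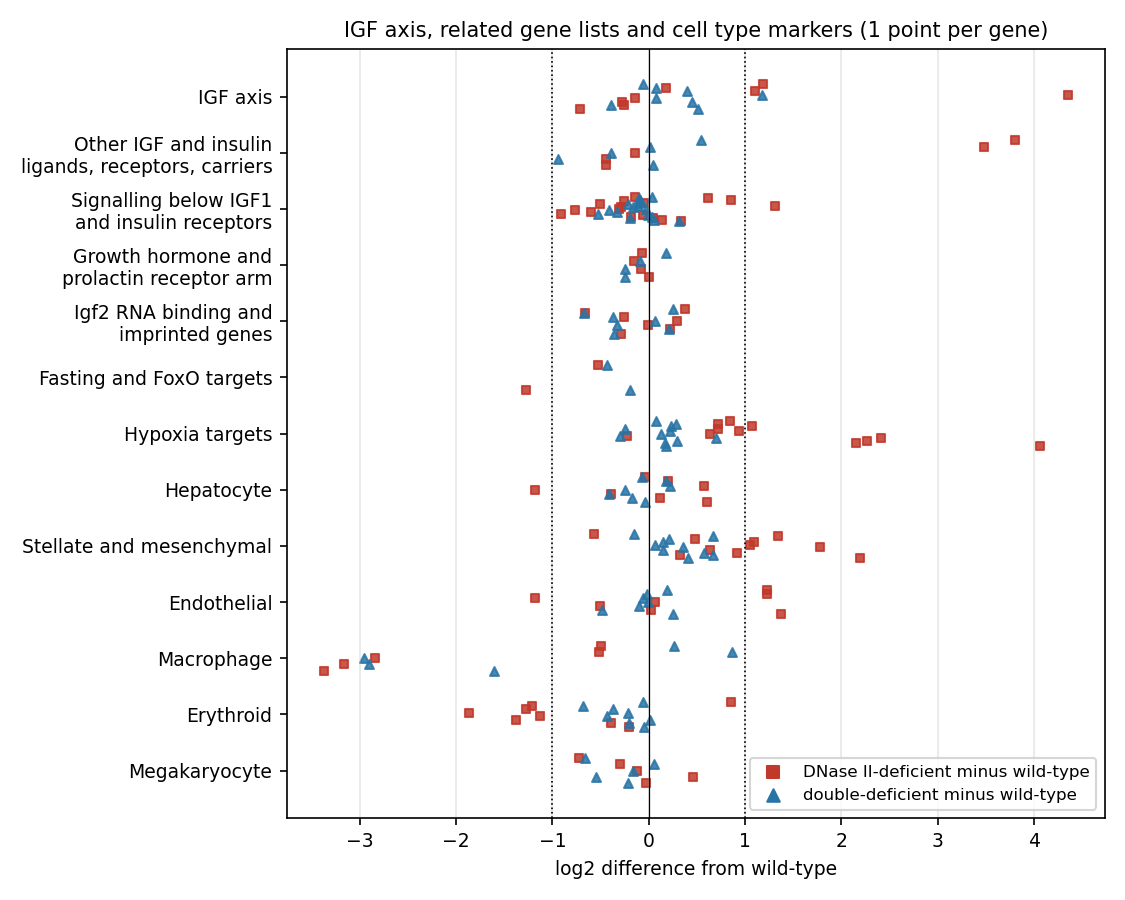
Log2 difference from wild-type of the DNase II-deficient array (red squares) and the double-deficient array (blue triangles), 1 point per gene, for the IGF axis, the related lists and the cell type markers. Only genes that passed the level filter between the DNase II-deficient array and wild-type are drawn, values under the floor are drawn at it, and dotted lines mark 2-fold. Igfbp1 at 4.35, Stc2 at 3.80 and Adm at 4.07 lie at the right as squares, and their triangles lie at 1.18, 0.54 and 0.18.

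The genes whose readings over the 3 arrays were most like those of each member with a 2-fold difference were found by Euclidean distance between log2 values, each centred on its own mean, among 10630 genes above the floor on every array. For Igfbp1 these were Hamp, Serpina3n, Slfn1, Ifitm3 and Gbp3, at distances of 0.11 to 0.31. The wild-type readings of Serpina3n, Slfn1 and Gbp3, at 0.440, 0.165 and 0.429, were below the array median. That of Slfn1 lay just above the floor. Hamp encodes the iron hormone hepcidin of hepatocytes and read 5.43, 117.7 and 13.7, 21.7-fold higher in the DNase II-deficient array than in wild-type and 2.53-fold higher in the double-deficient array than in wild-type. Serpina3n, an acute phase protease inhibitor gene, read 0.440, 8.84 and 0.883. Ifitm3, an antiviral gene induced by interferon, read 23.0, 388.4 and 51.2. For Igf1 the nearest were Mcpt8, Fastkd3, Stimate, Qser1 and Rnase10, at 0.009 to 0.055. Mcpt8, a basophil protease gene, read 2.14, 1.32 and 3.07. For Igfbp3 they were Id1, Samd8, Cnr2, Stk32a and Abcg1, at 0.025 to 0.034, with Id1, a target of bone morphogenetic protein signalling, at 1.98, 4.21 and 2.65. For Igfbp5 they were Tpm1, Emcn, Ogfr, Parp12 and Hic1, at 0.004 to 0.047, and the endothelial marker Emcn among them read 0.827, 1.93 and 0.817. Over 3 arrays such likeness is a description of the readings only.

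**Figure D4:**
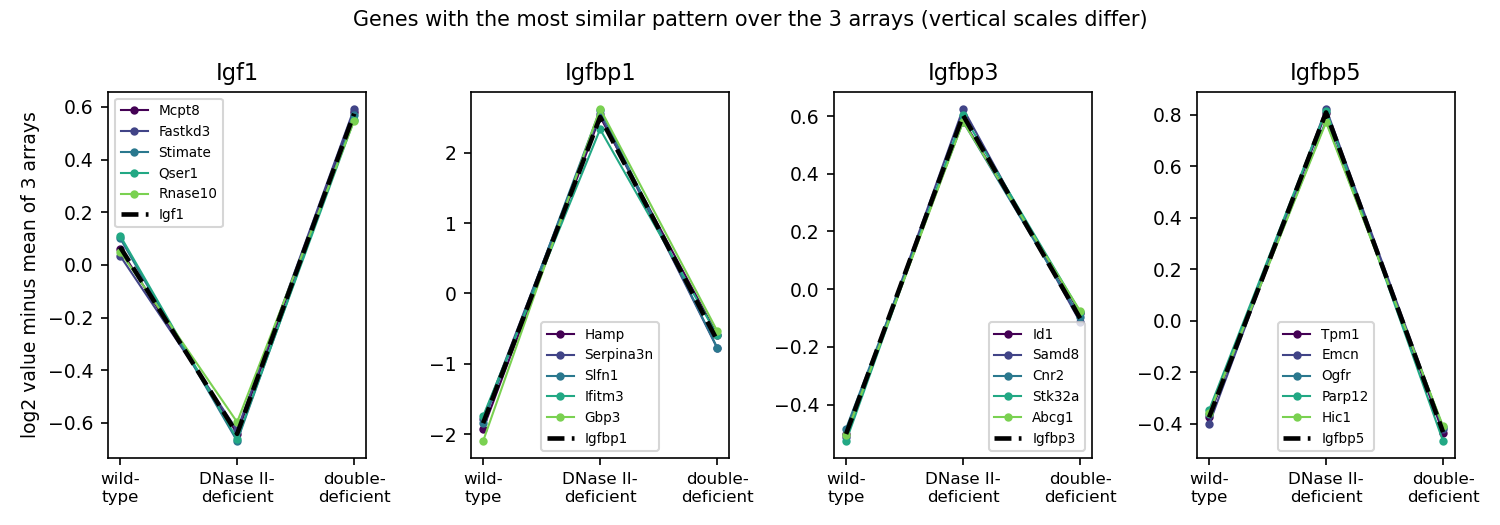
Log2 intensity minus the mean of the 3 arrays for Igf1, Igfbp1, Igfbp3 and Igfbp5 (dashed black) and the 5 genes nearest to each (coloured lines), with the arrays along the horizontal axis and a vertical scale of its own in each panel. The lines overlap because the genes were chosen for this. Igfbp1, Igfbp3 and Igfbp5 peak in the DNase II-deficient array, at 82.8, 4.28 and 6.49, and Igf1 is lowest there, at 2.67.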

How the data were processed

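The data are 3 CodeLink arrays of mouse fetal liver, 1 per genotype. Selected poly(A) RNA was, per the labels' protocols, copied to cDNA, transcribed in vitro with a biotinylated nucleotide, hybridised, stained with Cy5-streptavidin, scanned, and read with the CodeLink System Software. The sources used here do not give its version, background correction or filters. As deposited by the authors, each value is a normalised intensity, not log transformed. The array medians nearly coincide, so differences in total RNA are hidden, and 224 to 267 values per array at or below 0 make dim probes uncertain. Arrays have no depth, and their number limits the precision.

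Of 20289 probes, 125 without a value on every array were left out, 15120 had 1 gene symbol, 38 several and 5131 none, and only the first kind named genes. The brightest probe stood for a gene, giving 13697 genes. Values were raised to the 25th percentile, log2 transformed and subtracted (Python 3.11.15, numpy 2.4.6, pandas 2.3.3), and genes above the median in 1 of the 2 arrays were counted at 2-fold. The steps were tested on simulated data. The spread at like level is 1.4826 times the median absolute deviation. Alternatives were other floors, filters, scalings (loess by statsmodels 0.14.6) and probe choices. For list genes and list counts they were added after the data were seen. Named genes were every member probe, the 5 nearest in pattern and the targeted genes. Further genes were drawn from the list genes differing by 2-fold and the 3 brightest of each related or marker list. Other genes named (Foxo1, Pappa, Stat5b, Igfbp6, Ins2, Pck1, Pdk4 and several markers) were chosen after their values were seen. The members, lists and motifs were chosen with earlier results of these data known. Promoter windows are those of RefSeq (GRCm38.p6), found for all 9 members by symbol. Probe positions in the genome were not used here.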

Additional observations from a re-analysis of the deposited data

How the results depend on the processing

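Each of 3 member counts and 24 member differences was recomputed under 9 alternatives. The 27 recomputed counts stayed within 1.5 times the original, although the count for DNase II-deficient against wild-type was 2 rather than 3 with the filter at the 75th percentile (without Igfbp3) or the median of all probes (without Igfbp5). Of 216 recomputed differences, 212 moved by less than the spread at like level. The other 4 came from using the median of all probes: Igf1r at 0.15 and 0.18 for the double-deficient array against the DNase II-deficient array and wild-type, and Igfbp5 at 0.58 and -0.60 for DNase II-deficient minus wild-type and double-deficient minus DNase II-deficient. Igfbp1 ranged from 4.35 to 4.63, from -3.36 to -3.17 and from 1.18 to 1.27. No difference of at least 2-fold changed sign under these alternatives. Of 324 recomputed list counts, 39 moved by over 1.5 times, most of them from counts of 1 or 2 genes. The arrays being single, no paired analysis was possible because each genotype has 1 sample and no replicate could be left out. Signal over background limits Stc1, Stc2, Tsc1, Adm, Ddit4, Lrat, Clec4f, Pecam1, Emcn, Serpina3n, Slfn1, Gbp3, Samd8, Stk32a and the dimmer Igfbp5 probe.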
